A study of Rattus norvegicus with 12 samples.

Results

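The genes described here are 10 negative feedback genes of RAS-MAPK signalling, taken from the deposited tables by symbol: the dual specificity phosphatases Dusp1, Dusp4, Dusp5 and Dusp6, the Sprouty genes Spry1, Spry2 and Spry4, and the Sprouty-related genes Spred1, Spred2 and Spred3. They were 10 of the 22850 features in the tables, and all 10 passed the filter on low counts in every comparison. The rule used symbols only, but the genes were chosen with earlier results of these data known. They were measured by RNA-seq in primary atrial fibroblasts of newborn Sprague-Dawley rats, which were enriched by differential adhesion and not sorted. All cells received angiotensin II (AngII, 1 μmol/L) in medium with 2% FBS for 48 h, either alone, with HNG (10 μmol/L), an analogue of the mitochondrial-derived peptide humanin in which a glycine replaces a serine, or with MOTS-c (5 μmol/L), another mitochondrial-derived peptide. Each peptide was added 1 h before AngII. The 3 groups, named AngII, AngII+HNG and AngII+MOTS-c, held 4 libraries each, and no group without AngII was analysed here, so the values do not tell how AngII itself changed these genes.

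Growth factor receptors activate RAS, which starts the kinase chain RAF, MEK and ERK, and AngII reaches the same chain through its G protein-coupled receptor. Active ERK induces transcription of its own inhibitors. The dual specificity phosphatases remove phosphate from both the threonine and the tyrosine that activate a MAP kinase, whereas Sprouty and SPRED proteins act higher in the chain, at the step between the receptor and RAF. In cardiac fibroblasts ERK signalling is known for its part in proliferation and matrix production.

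The libraries held 27960586 to 38322354 counts on genes, so that 3 counts in a library correspond to 0.0787 to 0.106 CPM, the counts of a gene scaled to a common library total. Counts were scaled by TMM, whose factors lay between 0.989 and 1.01. AngII+HNG replicate 3 stood apart from its group: the chi-square per gene between it and the other 3 AngII+HNG libraries was 13.7 to 18.5, against 4.30 to 8.65 for all other pairs of libraries in a group. Of these other pairs, those with replicate 4 gave 7.53 to 8.65 and the rest 4.30 to 6.87. Without AngII+HNG replicate 3 the same number of feedback genes, 2, passed the test in HNG vs AngII and in HNG vs MOTS-c. When libraries were left out, 431 to 932 of all genes tested passed in HNG vs AngII and 322 to 625 in HNG vs MOTS-c. The summed CPM of 10 fibroblast markers was 62969 to 70920 over all libraries, and that of 8 cardiomyocyte markers was 4977 to 6729, so cardiomyocyte transcripts were present in every library of these fibroblast cultures.

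On the scale of FPKM, which takes gene length into account, the 10 genes fell into levels whose ranges did not overlap. Spry1, whose product restrains signalling from receptor tyrosine kinases, had the highest mean over the 12 libraries with 49.2 FPKM (range 45.8 to 55.9). It was followed by Spry2, a paralogue with the same role, at 45.1 FPKM (39.8 to 50.3), and by Dusp1, a nuclear phosphatase of p38, JNK and ERK, at 37.4 FPKM (30.9 to 44.7). The ranges of these 3 neighbours overlapped in this order. Among the features with any count, Spry1 stood at the 92.5 percentile, Spry2 at the 91.6 and Dusp1 at the 89.8.

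A middle level was formed by 5 genes whose ranges also overlapped. Spry4, another Sprouty gene, had 11.2 FPKM (8.54 to 13.0). Dusp6, the cytoplasmic phosphatase selective for ERK, had 10.5 FPKM (8.72 to 12.2). Spred2 and Spred1, which bring neurofibromin to the membrane to switch RAS off, had mean levels of 10.3 and 10.1 FPKM, and Dusp4, a nuclear phosphatase, had 9.23 FPKM (7.42 to 10.6). Below them and apart from each other were Spred3 at 4.21 FPKM (3.79 to 5.15) and Dusp5, the nuclear phosphatase selective for ERK, at 2.22 FPKM (1.71 to 2.62). Dusp5 thus rested on the fewest reads, 139 to 253 counts in a library.

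**Figure D1:**
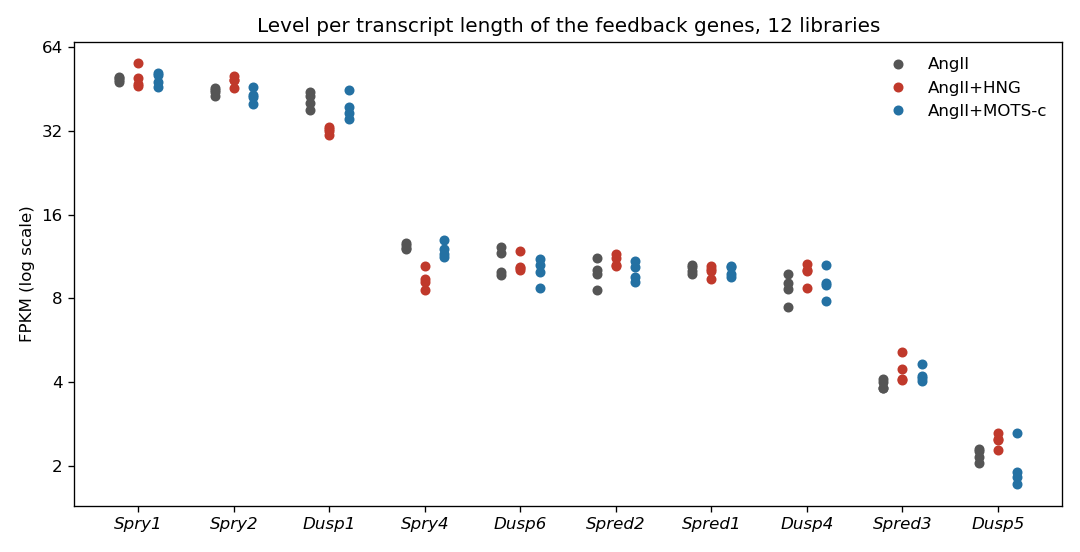
FPKM (log axis) of the 10 feedback genes in the 12 libraries, with a point for each library and the genes in the order of their mean. Spry1, Spry2 and Dusp1 lie highest and Spred3 and Dusp5 lowest, and the ranges of the levels do not overlap.

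In AngII+HNG against AngII, Dusp1 and Spry4 fell and none of the other 8 genes passed the test. These 2 of 10 genes compare with 5.98% of the 14524 genes tested that were called in either direction and 2.58% that were called lower, at an adjusted p below 0.05 of edgeR's quasi-likelihood test. Groups without overlap were found for the same 2 genes, against 13.7% of all genes tested, or 6.82% in the lower direction. An unadjusted p below 0.05 was reached by 3 of the 10, including Spry2, against 20.3% of all genes tested. The 10 genes did not move as a block: 6 log2 fold changes were above 0 and 4 below, with a median of 0.054 against 0.0043 for all genes tested. Their median absolute log2 fold change was 0.115, against 0.0866 for all genes tested. In bulk RNA, fewer cells of a type and less RNA per cell cannot be told apart. The summed CPM of 6 smooth muscle and pericyte markers was also lower in all AngII+HNG libraries, at 580 to 666 against 757 to 802 in AngII, mainly through Notch3 and Myh11, and the part of cell composition in the fall of Dusp1 and Spry4 was not tested.

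Dusp1 is an immediate-early gene that is induced by growth factors and stress. Its CPM in replicates 1 to 4 was 86.8, 89.5, 77.1 and 82.5 in AngII, 65.3, 66.4, 63.6 and 61.7 in AngII+HNG, and 71.0, 90.1, 78.5 and 75.2 in AngII+MOTS-c. Each AngII+HNG library was thus below each library of the other groups, and the AngII and AngII+MOTS-c libraries overlapped. The mean was 84.0 ± 5.43 CPM (SD, n = 4) in AngII and 64.2 ± 2.08 CPM (SD, n = 4) in AngII+HNG. Dusp1 fell by 23.2%, a log2 fold change of -0.38 with an SE of 0.051 and an edgeR adjusted p of 0.00102 (95% interval -0.49 to -0.27). Ranked by p-value it was number 68 of the genes tested.

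Spry4 inhibits RAS-ERK signalling downstream of receptor tyrosine kinases. Its CPM in replicates 1 to 4 was 63.3, 62.4, 60.6 and 61.0 in AngII, 51.8, 46.5, 42.1 and 45.3 in AngII+HNG, and 57.3, 64.6, 59.8 and 56.2 in AngII+MOTS-c. The AngII libraries lay close together, and all AngII+HNG libraries were below all others. The mean was 61.8 ± 1.26 CPM (SD, n = 4) in AngII and 46.5 ± 4.04 CPM (SD, n = 4) in AngII+HNG. Spry4 fell by 24.7%, a log2 fold change of -0.41 with an SE of 0.057 and an edgeR adjusted p of 0.00148 (95% interval -0.53 to -0.28). The lowest of its values was that of AngII+HNG replicate 3, the library that stood apart, and without it the log2 fold change was -0.37 (edgeR adjusted p = 0.00115).

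**Figure D2:**
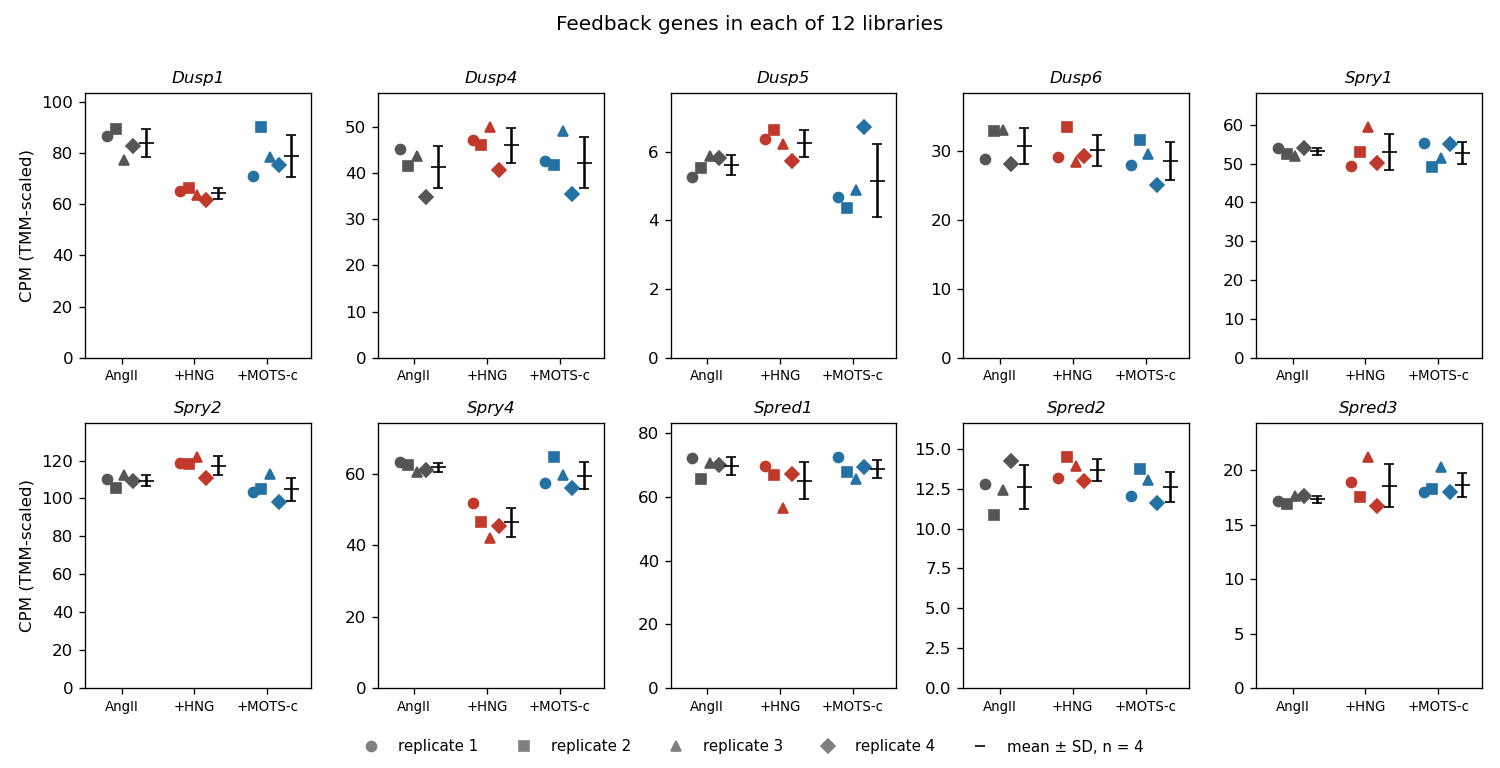
CPM of each of the 10 feedback genes by group, with a point for each library and a bar for the mean and SD of 4 libraries. Dusp1 and Spry4 are lower in all AngII+HNG libraries than in all others, whereas the groups of the other genes overlap, except that Spred3 in AngII+MOTS-c lies above AngII.

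Of the other Sprouty genes, Spry2 lay in the opposite direction to Spry4 but did not pass the test. Its CPM in replicates 1 to 4 was 110.1, 105.3, 112.3 and 109.3 in AngII, 118.8, 118.4, 121.7 and 110.6 in AngII+HNG, and 103.4, 104.9, 112.8 and 98.3 in AngII+MOTS-c. Replicate 4 of AngII+HNG lay within the AngII values and the other 3 lay above them. The log2 fold change of AngII+HNG against AngII was 0.11 with an SE of 0.041, and an edgeR adjusted p of 0.155. Spry1 showed no detectable difference at a log2 fold change of 0.0018, with a 95% interval of -0.12 to 0.13. Its AngII libraries lay at 52.0 to 54.0 CPM, and its AngII+HNG libraries spread around them over 49.4 to 59.4 CPM.

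Among the phosphatases, Dusp6, often used as a transcript readout of ERK activity, did not follow Dusp1. Its CPM in replicates 1 to 4 was 28.8, 32.9, 33.1 and 28.2 in AngII, 29.2, 33.4, 28.4 and 29.3 in AngII+HNG, and 27.9, 31.6, 29.6 and 25.0 in AngII+MOTS-c. The 3 groups overlapped over most of their range. The log2 fold change of AngII+HNG against AngII was -0.024 with a 95% interval of -0.18 to 0.13 (edgeR adjusted p = 0.900), so a fall of the size seen for Dusp1 lay outside the interval.

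Dusp4 gave 45.1, 41.4, 43.6 and 34.7 CPM in AngII, 47.0, 46.0, 49.9 and 40.7 CPM in AngII+HNG, and 42.5, 41.7, 49.0 and 35.4 CPM in AngII+MOTS-c. Replicate 4 was the lowest in each of the 3 groups. Likewise, the same replicate number was highest in each group for Dusp1 (replicate 2), Spry2 (replicate 3) and Spred1 (replicate 1). The log2 fold change of AngII+HNG against AngII was 0.16 with an SE of 0.082 and an edgeR adjusted p of 0.302. Dusp5 ranged over 5.26 to 5.87 CPM in AngII and 5.72 to 6.64 CPM in AngII+HNG, with a log2 fold change of 0.16 (SE 0.093, edgeR adjusted p = 0.387).

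The 3 SPRED genes overlapped between AngII and AngII+HNG. Spred1 ranged over 65.7 to 72.2 CPM in AngII and 56.5 to 69.7 CPM in AngII+HNG, where its lowest value was again that of replicate 3. Spred2 ranged over 10.9 to 14.3 CPM in AngII and 13.0 to 14.5 CPM in AngII+HNG. Their log2 fold changes were -0.094 and 0.12, and that of Spred3 was 0.11, with edgeR adjusted p-values of 0.431, 0.479 and 0.477.

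Promoter windows of RefSeq (assembly GRCr8, 250 bases before to 50 bases after the start site) were found for 9 of the 10 genes, as 10 sequences. The 4 motifs linked to growth factor responses were searched in them on both strands, namely the cAMP response element TGACGTCA, present in 1.83% of all 33469 windows of 300 bases, the AP-1 site TGANTCA in 7.33%, the ETS site CCGGAAG in 8.75%, and the CArG box, bound by serum response factor, in 1.64%. Only the windows of Dusp1 and Dusp5 held any of these letters, and both are shown with the matches in capitals. The Dusp1 window, chr10:17184603-17184902 on the + strand, has a cAMP response element 124 bases before the start site. In the Dusp5 window, chr1:262543524-262543823 on the + strand, adjoining CArG boxes begin 82 and 72 bases before the start site.
Dusp1: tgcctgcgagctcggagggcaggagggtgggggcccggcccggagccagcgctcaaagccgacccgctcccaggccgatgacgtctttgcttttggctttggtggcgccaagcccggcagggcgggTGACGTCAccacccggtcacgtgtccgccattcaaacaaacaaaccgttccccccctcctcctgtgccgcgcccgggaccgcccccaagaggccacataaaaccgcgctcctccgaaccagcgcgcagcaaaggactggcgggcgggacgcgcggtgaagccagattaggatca
Dusp5: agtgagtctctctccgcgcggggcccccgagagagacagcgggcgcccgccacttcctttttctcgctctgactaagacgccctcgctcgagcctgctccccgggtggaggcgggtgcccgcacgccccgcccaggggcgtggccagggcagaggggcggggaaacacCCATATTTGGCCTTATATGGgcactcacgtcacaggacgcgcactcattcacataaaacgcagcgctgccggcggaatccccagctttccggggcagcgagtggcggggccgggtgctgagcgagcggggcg
The window of Spry4, which fell together with Dusp1, held none of the 4 motifs. A match describes letters only and no binding was measured.

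MOTS-c gave no call in the feedback genes. In AngII+MOTS-c against AngII, 0 of the 10 genes passed edgeR's test and 0 had an unadjusted p below 0.05, where 0.00690% and 5.05% of the 14488 genes tested did. DESeq2 and limma on FPKM also called 0 of the 10. The adjusted p-values ran from 0.924 to 0.999, 3 log2 fold changes were above 0 and 7 below, and their median was -0.035 against -0.00076 for all genes tested. Dusp1 had a log2 fold change of -0.091 (95% interval -0.23 to 0.049) and Spry4 one of -0.054 (95% interval -0.15 to 0.042), so that for both a fall as large as that with HNG lay outside the interval. This comparison and that of HNG share the 4 AngII libraries.

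Spred3 was the one gene of the 10 whose groups did not overlap in AngII+MOTS-c against AngII, where 3.41% of all genes tested had no overlap and 1.68% were higher without overlap. It gave 17.2, 16.9, 17.6 and 17.6 CPM in AngII, 18.9, 17.6, 21.2 and 16.8 CPM in AngII+HNG, and 18.0, 18.3, 20.3 and 18.0 CPM in AngII+MOTS-c. The lowest AngII+MOTS-c library lay just above the highest AngII library. The log2 fold change was 0.11 with an SE of 0.061, and the edgeR adjusted p was 0.924. Dusp5 had the largest absolute log2 fold change of the 10 with -0.13 (95% interval -0.41 to 0.16), and its values were 4.66, 4.35, 4.87 and 6.71 CPM in AngII+MOTS-c, so replicate 4 was above all AngII libraries and the others below.

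**Figure D3:**
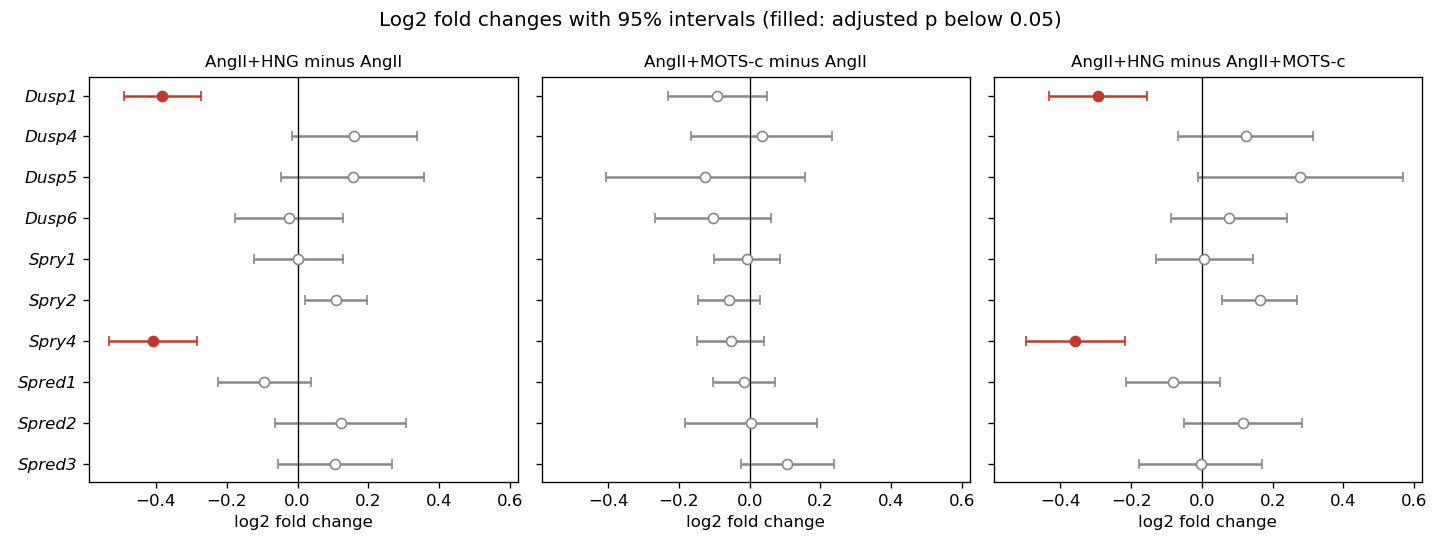
Log2 fold change and 95% interval of the 10 feedback genes in each of the 3 comparisons, from edgeR with 4 libraries per group, with filled points for an adjusted p below 0.05. Dusp1 and Spry4 are lower in HNG vs AngII and in HNG vs MOTS-c, and in MOTS-c vs AngII no gene passes.

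The peptides were then compared with each other, a test of the difference between their responses that does not use the AngII libraries but shares the peptide libraries with the comparisons above. In AngII+HNG against AngII+MOTS-c, 2 of the 10 genes passed, Dusp1 and Spry4, both lower with HNG and both without overlap, where 4.41% of the 14448 genes tested were called, 1.77% as lower, and 12.6% had no overlap, 6.24% as lower. An unadjusted p below 0.05 was reached by 3 of the 10, again with Spry2, against 19.3% of all genes tested. Spry4 was lower by a log2 fold change of -0.36 (SE 0.065, edgeR adjusted p = 0.00810). Dusp1 was lower by -0.29 (SE 0.064, edgeR adjusted p = 0.0207), a call that was lost without AngII+HNG replicate 4 (adjusted p = 0.0676), without AngII+MOTS-c replicate 3 (0.0535), without replicate 4 of both groups (0.0821), and with limma on log2(FPKM + 1) (0.0592) or log2(FPKM + 0.1) (0.0565). Spry2 was 0.16 higher on the log2 scale in AngII+HNG (SE 0.049, 95% interval 0.058 to 0.27) and missed the threshold with an edgeR adjusted p of 0.0819. It passed with DESeq2 (0.0372), with all 12 libraries in one fit (0.0347) and with the replicate number as a block (0.0195). Dusp5 had a log2 difference of 0.28 (SE 0.13, edgeR adjusted p = 0.277) and passed only without AngII+MOTS-c replicate 4, at 0.43 and an adjusted p of 0.0486.

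Over the 12 libraries the log2 CPM of Dusp1 and Spry4 had a Pearson r of 0.92, and of 0.61 after the group means were removed. Of the 45 pairs of feedback genes, 5 had a within-group r of at least 0.5 and 2 of at most -0.5, with a median of 0.040. Spry1 and Spry4 had a within-group r of -0.82, and Spry2 one of 0.78 with both Dusp4 and Spred3. These are descriptions over 12 points that share libraries, depth and 3 treatments.

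The genes with the pattern most like each feedback gene were sought by Pearson r among genes whose mean reached 10 CPM. There were 9241 candidates for each feedback gene, or 9242 for Dusp5. The best 2 of so many over 12 libraries can reach a high r without any link, and no r was tested. For Spry4 they were Cald1, which encodes the actin-binding protein caldesmon, with r = 0.98, and the Notch ligand gene Jag1, also with r = 0.98. With the group means removed, r was 0.87 for Cald1 and 0.84 for Jag1. For Dusp1 they were Lmod1, which encodes the actin-nucleating protein leiomodin of smooth muscle, and the glycosyltransferase gene Galnt18, each with r = 0.96, and with 0.83 and 0.81 once the group means were removed. Since these genes were picked for their likeness to Spry4 or Dusp1 over the same libraries, the picking itself fixes a like difference between the groups, and none is tested here. The nearest genes of Dusp6 were the cell cycle genes Fbxo5 (r = 0.91), an inhibitor of the anaphase-promoting complex, and Rrm1 (r = 0.89), a subunit of ribonucleotide reductase. Dusp4 was nearest to the chemokine gene Cxcl12 (r = 0.93) and to Ehd3 (r = 0.89), Spry2 to Lgals9 (r = 0.92) and Serpinb6a (r = 0.91), and Spred1 to Cltc and Sh3glb1, each with r = 0.95. Spry1 was nearest to Farsa (r = 0.92) and Exosc7 (r = 0.91), Dusp5 to Ap5z1 (r = 0.85) and Arl2bp (r = 0.84), Spred2 to Arhgef10 (r = 0.81) and Tomm6 (r = 0.79), and Spred3 to Zmat2 (r = 0.85) and Tor3a (r = 0.84).

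Some markers of other cells were called in AngII+HNG against AngII, where 5.98% of all genes tested were called. Of the 6 smooth muscle and pericyte markers, Myh11 and Notch3 fell, from a mean of 182 to 143 CPM and of 452 to 346 CPM. They made up most of the lower sum. All 6 log2 fold changes were below 0, with a median of -0.22, and the other 4 were not called, at -0.27 for Abcc9, -0.18 for Kcnj8, -0.050 for Rgs5 and -0.0036 for Cspg4 (edgeR adjusted p = 0.0852, 0.694, 0.921 and 0.981). The sum in AngII+MOTS-c, 704 to 804 CPM, lay around that of AngII and above all AngII+HNG libraries. The summed CPM of 8 macrophage markers was 152 to 188 in AngII and 180 to 246 in AngII+HNG, so that the groups overlapped. Cd68, Mrc1 and Ptprc of this list were higher, Ptprc with a call that was lost in 6 of 18 alternatives (adjusted p up to 0.0947). Adgre1, the gene of the macrophage antigen F4/80, lay in the opposite direction at a log2 fold change of -0.36 and C1qb at -0.046, with edgeR adjusted p-values of 0.185 and 0.916. None of the markers in these lists was at 0 in all libraries. Fibroblast markers gave 64945 to 69329 CPM in AngII and 62969 to 70920 CPM in AngII+HNG, with Tcf21 and Thy1 of the 10 higher, the latter with a call lost in 5 of 18 alternatives (adjusted p up to 0.0875). Of 8 cardiomyocyte markers all 8 log2 fold changes were above 0, with a median of 0.12, and 3 had an unadjusted p below 0.05. Only Tnni3 was called higher, a call lost in 4 of 18 alternatives (adjusted p up to 0.0589). The summed CPM of this list was 5389 to 6148 in AngII and 5736 to 6729 in AngII+HNG, so that the groups overlapped. Of 7 endothelial markers Kdr and Tek were higher and Flt1 lower, and the call of Kdr was lost in 7 of 18 alternatives (adjusted p up to 0.113). The Schwann cell and epicardial markers tested (3 each) had 0 calls. Of the 45 marker genes tested in HNG vs AngII, 19 had an unadjusted p below 0.05, against 20.3% of all genes tested. In MOTS-c vs AngII 0 of 45 marker genes tested were called by edgeR, and 5 had an unadjusted p below 0.05, beside 0.00690% and 5.05% of all genes tested.

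The other inhibitors of the pathway were examined to place these 2 falls. Of 12 other negative regulators of RAS and ERK, 2 fell and 0 rose in AngII+HNG against AngII, with a median log2 fold change of -0.023. Over all genes tested 5.98% were called, 2.58% as lower. An unadjusted p below 0.05 was reached by 5 of the 12, against 20.3% of all genes tested. Errfi1, which encodes an inhibitor of the EGF receptor and is itself induced by growth factors, gave 81.0, 77.8, 82.5 and 89.8 CPM in AngII and 60.5, 61.0, 57.3 and 62.8 CPM in AngII+HNG. It fell by 0.45 on the log2 scale (SE 0.050, edgeR adjusted p = 3.5e-04), with all AngII+HNG libraries below all AngII libraries, and it also fell against AngII+MOTS-c, with a log2 fold change of -0.42 (4.1e-04). Spry3, the remaining Sprouty gene, had 27, 27, 18 and 16 counts in AngII, 3, 8, 2 and 10 in AngII+HNG, and 21, 9, 12 and 7 in AngII+MOTS-c. Its log2 fold change of -1.83 (SE 0.41, edgeR adjusted p = 0.0188) rests on these few reads and lost the call without AngII replicate 1 (0.0699) or replicate 2 (0.0686), and with limma on log2(FPKM + 1), where it was -0.13 (0.0802). Of 6 other MAP kinase phosphatases 0 passed edgeR's test and 0 had an unadjusted p below 0.05, and the largest difference was that of Dusp2, a log2 fold change of 0.28 (edgeR adjusted p = 0.712).

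In the signalling chain itself, the calls in AngII+HNG against AngII are to be read beside the 5.98% of all genes tested that were called and the 20.3% with an unadjusted p below 0.05. Of 12 genes of the RAS-RAF-MEK-ERK cascade 3 had an unadjusted p below 0.05 and 1 passed, Mapk3, the gene of ERK1, with a log2 fold change of 0.13 (edgeR adjusted p = 0.0457) that missed the threshold in most alternatives, at adjusted p-values up to 0.152. The largest difference in that list was that of Map2k1, the gene of MEK1, at -0.13 (0.104). Fgfr2, a fibroblast growth factor receptor, was the 1 of 9 receptors that passed, with 0.28 (0.00209), and it was also higher than in AngII+MOTS-c, with 0.28 (0.00313). Of 7 receptor adaptors 0 passed edgeR's test and 3 had an unadjusted p below 0.05, with the largest difference at Gab1, -0.13 (0.219). Of 12 genes of the JNK, p38 and ERK5 cascades 0 passed and 1 had an unadjusted p below 0.05, with the largest difference at Mapk13, 0.17 (0.855).

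Genes induced by ERK did not move in 1 direction. Of 12 such genes, 3 rose and 1 fell in AngII+HNG against AngII, with a median log2 fold change of -0.031. An unadjusted p below 0.05 was reached by 8 of the 12, against 20.3% of all genes tested, of which 5.98% were called. Ccnd1, the gene of cyclin D1, which drives entry into the cell cycle, rose with the largest log2 fold change of this list, 0.56 (SE 0.064, edgeR adjusted p = 4.6e-04). Its CPM was 128.6, 134.8, 124.6 and 111.3 in AngII, 191.4, 199.6, 172.3 and 169.8 in AngII+HNG, and 110.8, 123.0, 117.5 and 107.6 in AngII+MOTS-c. Every AngII+HNG library was above every other library for Ccnd1, the reverse of Dusp1 and Spry4 in the same libraries. The ETS factor genes Etv5 (0.26, edgeR adjusted p = 0.0117) and Etv4 (0.38, 0.0265) also rose, and Ier3, an immediate-early gene, fell by 0.30 on the log2 scale (0.00357). Etv4 lost its call without any single AngII library other than replicate 2, without AngII+HNG replicate 2 and with replicates 2 and 3 summed, at adjusted p-values up to 0.0882, and Etv5 lost it without replicate 4 of both groups (0.0656). Fos, the immediate-early gene, had a log2 fold change of -0.32 (0.107).

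Against AngII+MOTS-c the ERK response genes gave 4 higher and 1 lower with HNG out of 12, and 7 had an unadjusted p below 0.05, where 4.41% of all genes tested were called and 19.3% had such a p. Ccnd1 was 0.68 higher on the log2 scale (edgeR adjusted p = 1.3e-04), Etv5 0.21 (0.0196), Etv4 0.42 (0.0309) and Etv1 0.39 (0.0432) higher, and Ier3 had a log2 fold change of -0.32 (0.00810). The call of Etv1 was lost in 9 of 18 alternatives (adjusted p up to 0.132), that of Etv4 in 7 (up to 0.0898) and that of Etv5 in 4 (up to 0.110), among them left-out libraries for each, the block by library name number for Etv1 and Etv5, limma on FPKM for Etv1 and the sum of replicates 2 and 3 for Etv4. In AngII+MOTS-c against AngII, 0 of the 69 genes tested over the 7 pathway lists passed edgeR's test, and 6 had an unadjusted p below 0.05, beside 0.00690% and 5.05% of all genes tested.

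**Figure D4:**
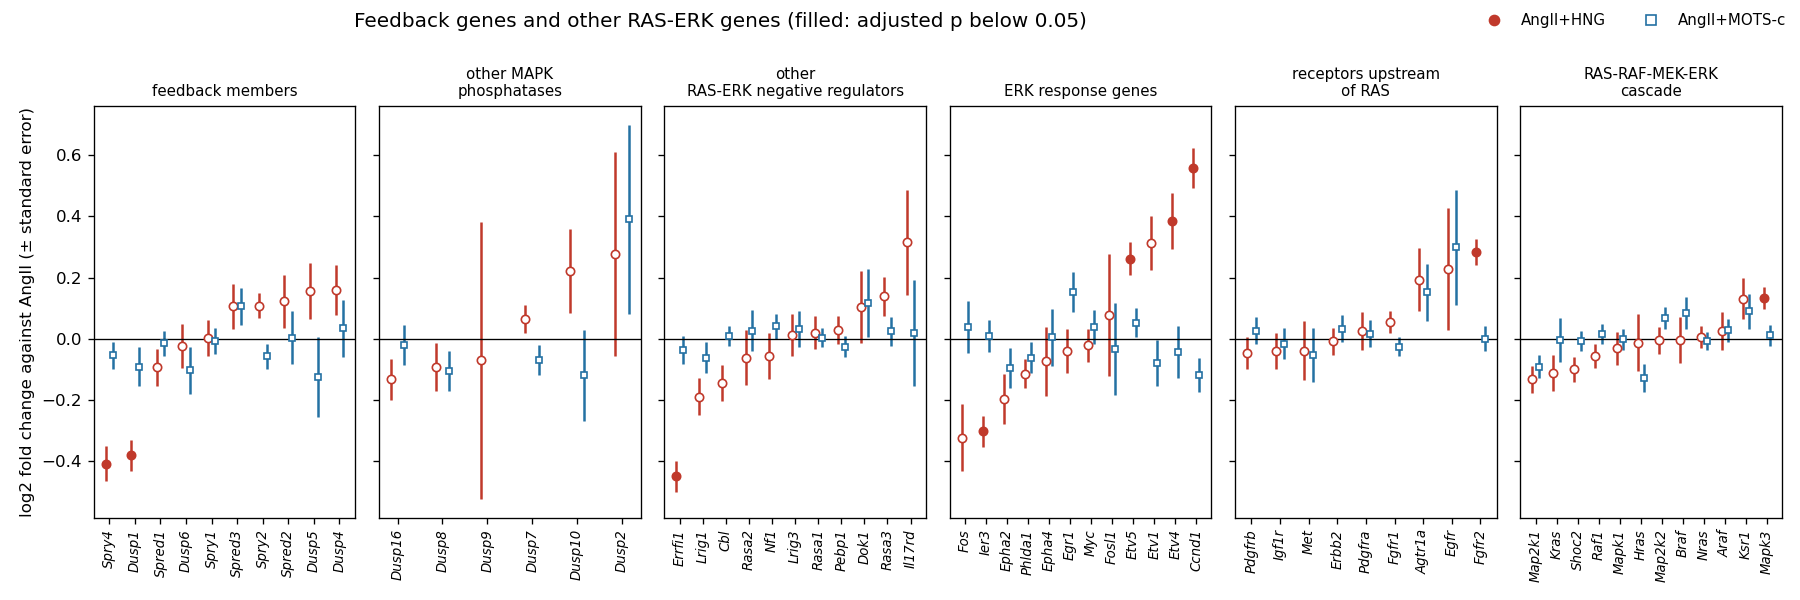
Log2 fold change with its SE of HNG vs AngII and of MOTS-c vs AngII for the 10 feedback genes, the other MAP kinase phosphatases (Dusp9 with HNG only, since it was not tested with MOTS-c), the other negative regulators (without Spry3, which rests on few counts), the ERK response genes, the receptors and the kinase cascade, with filled points for an edgeR adjusted p below 0.05. Dusp1, Spry4, Errfi1 and Ier3 are lower with HNG, Ccnd1, Etv4, Etv5, Fgfr2 and Mapk3 are higher, and no point for MOTS-c is filled.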

How the data were processed

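RNA of 12 libraries, 4 for each of AngII, AngII+HNG and AngII+MOTS-c, was prepared by the authors with an mRNA library kit after 48 h of treatment. Groups and replicate numbers were taken from the sample titles, and doses and times from the study's methods. The authors deposited raw whole-number counts of reads for each gene and FPKM values of the same genes. Over 11778 features with a mean of at least 100 counts, the gene length implied by the deposited counts, FPKM and library totals differed by over 1.1-fold between libraries in 15.9%, so the FPKM are not simply the deposited counts divided by 1 length and the total. The submitters' processing notes name HISAT2, Picard 1.41 and SAMtools 0.1.18. The build, the counting tool and the use of strand are not given in the sources used here, so reads of overlapping or antisense genes cannot be told apart.

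The count analysis used edgeR 4.0.16 in R 4.3.3. For each comparison the 8 libraries of its groups were fitted with glmQLFit and glmQLFTest after the filter filterByExpr and TMM scaling. P-values were adjusted by Benjamini-Hochberg over all genes tested, and a gene was called at an adjusted p below 0.05. SE and 95% intervals were derived from the F statistic, and log2 CPM used a prior count of 2. The code was tested on simulated data. Alternatives were DESeq2 1.42.0, unfiltered counts, RLE size factors, a joint fit of all 12 libraries, a block by replicate number or by library name number, replicates 2 and 3 summed because their library names carry the same number, limma 3.58.1 on log2(FPKM + 1) or log2(FPKM + 0.1), and each library left out. The study calls the samples biological replicates and independent samples, but does not say that they are separate cultures. P-values measure only the spread between these samples.

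The 10 genes and all gene lists were chosen with earlier results of these data known. Named in the text are the 10 genes, listed pathway or marker genes called in any comparison, the gene with the largest change in each pathway list, and the 2 genes with the highest Pearson r to each feedback gene among genes that average 10 CPM or more and have no LOC symbol. Fos, Adgre1, C1qb, Abcc9, Kcnj8, Cspg4 and Rgs5 were named after their values were seen. Promoter sequences came from RefSeq (GRCr8), matched by symbol.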

Additional observations from a re-analysis of the deposited data

Results flagged for a closer look

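A library lay apart from the others of its group, by a gap test for 4 samples, in 2 of the 30 sets made of a feedback gene and a group. Dusp6 was highest in AngII+HNG replicate 2, at 33.4 CPM against 28.4 to 29.3 CPM in the other 3 libraries. Spred3 was highest in AngII+MOTS-c replicate 3, at 20.3 CPM against 18.0 to 18.3 CPM. Chance marks about 1 in 20 such sets.

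The response to the peptides differed for 2 of the 10 genes when AngII+HNG was tested against AngII+MOTS-c, where 4.41% of the 14448 genes tested were called. Dusp1 differed by a log2 fold change of -0.29 (edgeR adjusted p = 0.0207) and Spry4 by -0.36 (edgeR adjusted p = 0.00810), each lower in 4 of 4 AngII+HNG libraries than in all AngII+MOTS-c libraries. The call of Dusp1 was lost in 5 of 18 alternatives (adjusted p up to 0.0821), which leaves 1 gene there.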

How the results depend on the processing

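In HNG vs AngII the count of 2 called feedback genes was kept under all 18 alternatives, with Dusp1 at log2 fold changes of -0.42 to -0.35 (highest adjusted p 0.00717) and Spry4 at -0.46 to -0.36 (highest adjusted p 0.0101), and in MOTS-c vs AngII the count of 0 was kept under all 18. In HNG vs MOTS-c it was 1 with limma on log2(FPKM + 1) or log2(FPKM + 0.1), 1 to 3 when libraries were left out, and 3 with DESeq2, all 12 libraries or the replicate block, while Spry4 was called under all 18 (highest adjusted p 0.0347). Over all genes, HNG vs AngII gave 869 calls as reported, at most 1205 under any alternative (with DESeq2), 577 with replicates 2 and 3 summed and 431 to 932 with libraries left out. MOTS-c vs AngII gave 1 as reported, 3 with DESeq2, 0 with all 12 libraries, 2 with the replicate block, 0 with replicates 2 and 3 summed and 0 to 3 with libraries left out. HNG vs MOTS-c gave 637 as reported, 1042 with DESeq2, 975 with all 12 libraries, 1054 with the replicate block and 322 to 625 with libraries left out.

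Of 540 values of the 30 gene and comparison pairs, 495 kept their direction and side of the threshold, 5 were no longer called, 4 became called and 36 changed sign, all of them uncalled. The log2 fold change of Spry1 in HNG vs AngII was -0.0023 with RLE factors, -0.0023 with DESeq2, -0.00072 with all 12 libraries, -0.0019 with the block by replicate number, -0.00084 with the block by library name number and -0.034 with replicates 2 and 3 summed. With that sum, Spry1 was 0.0018 and Spred2 -0.050 in MOTS-c vs AngII, and Spry1 was -0.038 in HNG vs MOTS-c. With limma on log2(FPKM + 1) and log2(FPKM + 0.1), HNG vs MOTS-c gave 0.00012 and 0.00013 for Spred1, and 0.047 and 0.056 for Spred3. With libraries left out, HNG vs AngII gave -0.079 to 0.010 for Dusp6 and -0.059 to 0.035 for Spry1, MOTS-c vs AngII gave -0.045 to 0.11 for Dusp4, -0.033 to 0.025 for Spry1, -0.043 to 0.0047 for Spred1 and -0.062 to 0.11 for Spred2, and HNG vs MOTS-c gave -0.053 to 0.055 for Spry1 and -0.074 to 0.046 for Spred3. The cause of these changes was not tested.

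Libraries with the same replicate number did not deviate together in every pair. The correlations across genes of their deviations from the group means ran from -0.075 to 0.14 in HNG vs AngII. They ran from 2.6e-05 to 0.12 in MOTS-c vs AngII and from -0.014 to 0.21 in HNG vs MOTS-c. The highest value in each comparison was that of replicate 4. The numbers were not taken as pairs, because the sources do not say that a number marks a shared preparation. A block by replicate number was run as an alternative. Dusp5, with 139 to 253 counts in a library, is the feedback gene that rests on the fewest reads.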
